A study of Mus musculus with 12 samples.

Results

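The core circadian clock genes Per1, Per2, Per3, Cry1, Cry2, Arntl (also named Bmal1), Clock, Npas2, Nr1d1 and Nr1d2 were followed across 12 arrays of mouse left ventricle. They were named as a group with earlier results of these data known, so the counts of called genes below are no independent evidence. All probe sets annotated to one of these symbols alone were taken, with the probe set of the highest mean over the 12 arrays standing for the gene. The 10 genes are part of 18193 genes with such a probe set, and all 10 are among the 10435 genes bright enough to be tested. Male C57BL/6 mice, 7 weeks old at the first operation, underwent either aortic banding, which narrows the aorta and loads the left ventricle with pressure, or a sham operation. The group sAB was taken 4 weeks after the sham and AB 4 weeks after banding. The groups sDB3 and DB3 had a second operation at 4 weeks and were taken 3 days after it: DB3 mice had been banded and had the band removed, and sDB3 mice had a sham procedure first and then the debanding step, also marked as sham in the labels. Each group had 3 mice and each mouse 1 array. Every mouse thus had at least 1 operation, and sDB3 and DB3 differ from sAB and AB in the second operation and in age together. The atria and right ventricle had been cut away before freezing. The hour of the day at which the hearts were taken was not given by the sources used here.

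For background, the circadian clock is a feedback loop of transcription that runs in nearly every cell, cardiomyocytes included. ARNTL pairs with CLOCK or with its relative NPAS2 and switches on genes that carry E-box sequences, among them the Per, Cry and Nr1d genes. PER and CRY proteins then block that pair, and the nuclear receptors NR1D1 and NR1D2 (REV-ERB alpha and beta) repress Arntl, Npas2 and other genes through ROR response elements. In the heart, as in other tissues, Arntl and Npas2 mRNA is known to peak at the opposite time of day to Per and Dbp mRNA, and the clock times much of the metabolism of the muscle.

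Promoter windows from RefSeq (build GRCm38.p6, 250 bases before to 50 bases after a transcription start, read on the strand of the gene) were found for 9 of the 10 genes, 13 windows in all. One window is shown for Arntl, Per1, Per3, Cry1 and Nr1d1, because these genes stand for the directions of change described here and their windows hold the letters of clock motifs, set in capitals. The windows lie at chr7:113207261-113207560 on the plus strand for Arntl, chr11:69098699-69098998 on the plus strand for Per1, chr4:151044616-151044915 on the minus strand for Per3, chr10:85185005-85185304 on the minus strand for Cry1 and chr11:98775328-98775627 on the minus strand for Nr1d1.
Arntl: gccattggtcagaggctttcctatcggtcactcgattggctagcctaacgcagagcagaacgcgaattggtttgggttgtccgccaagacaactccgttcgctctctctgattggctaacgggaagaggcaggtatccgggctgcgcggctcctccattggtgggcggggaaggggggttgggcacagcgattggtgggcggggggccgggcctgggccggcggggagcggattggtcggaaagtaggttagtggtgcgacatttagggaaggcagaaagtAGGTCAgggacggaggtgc
Per1: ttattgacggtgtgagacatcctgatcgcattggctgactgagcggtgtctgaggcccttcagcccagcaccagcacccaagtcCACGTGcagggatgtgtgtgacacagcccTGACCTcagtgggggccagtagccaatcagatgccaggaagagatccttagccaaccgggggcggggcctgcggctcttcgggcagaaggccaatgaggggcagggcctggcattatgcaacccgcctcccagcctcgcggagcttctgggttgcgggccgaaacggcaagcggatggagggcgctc
Per3: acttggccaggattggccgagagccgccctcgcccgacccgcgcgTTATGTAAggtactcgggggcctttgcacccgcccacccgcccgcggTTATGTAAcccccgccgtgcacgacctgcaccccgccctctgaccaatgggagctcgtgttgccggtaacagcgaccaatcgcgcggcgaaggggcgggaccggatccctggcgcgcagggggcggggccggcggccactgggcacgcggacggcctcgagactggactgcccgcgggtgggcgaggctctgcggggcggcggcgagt
Cry1: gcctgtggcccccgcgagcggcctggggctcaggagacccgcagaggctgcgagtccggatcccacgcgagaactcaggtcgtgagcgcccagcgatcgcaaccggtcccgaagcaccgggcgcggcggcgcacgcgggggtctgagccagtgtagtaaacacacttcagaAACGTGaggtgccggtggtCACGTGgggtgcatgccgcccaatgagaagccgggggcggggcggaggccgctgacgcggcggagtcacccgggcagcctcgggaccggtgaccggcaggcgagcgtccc
Nr1d1: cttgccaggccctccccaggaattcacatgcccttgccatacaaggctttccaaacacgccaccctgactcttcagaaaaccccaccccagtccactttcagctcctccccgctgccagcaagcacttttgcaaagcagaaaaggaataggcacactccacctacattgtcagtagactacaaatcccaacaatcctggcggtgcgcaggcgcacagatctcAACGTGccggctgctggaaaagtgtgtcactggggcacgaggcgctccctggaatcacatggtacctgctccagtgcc
Both strands were searched. The Arntl window holds AGGTCA, the core of the ROR response element, whose first base is 32 bases after the start. The Per1 window holds the E-box CACGTG at -166 and TGACCT, the ROR core on the other strand, at -137. The Cry1 window holds CACGTG at -60 and AACGTG, the other strand of the E-box variant CACGTT, at -79. The Nr1d1 window holds AACGTG at -28, and the Per3 window holds the D-box TTATGTAA, the site of the DBP, TEF and HLF factors, at -205 and at -158. No matches overlapped each other. Of the 13 windows, 2 held CACGTG, 3 CACGTT, 4 AGGTCA, 1 TTATGTAA and 0 the D-box variant TTACGTAA. Among 32851 RefSeq windows of the same length the shares were 7.15%, 4.68%, 16.3%, 0.938% and 0.119%. A match describes these letters in this window only.

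The values are log2 signals per probe set. The share of probe sets above 4, the level used as the floor for testing, was between 42.4% and 43.1% on the 12 arrays. Arrays give no sequencing depth, and 3 arrays a group limit the precision: an exact permutation test of 3 against 3 cannot go below 0.1, so calls rest on a limma fit that pools the spread over genes and groups. A gene was counted as called at a Benjamini-Hochberg adjusted p under 0.05 over the 10435 genes. All 8 cardiomyocyte markers were tested. The log2 of their summed unlogged signal lay between 18.46 and 18.64 on all arrays. These markers of heart muscle were thus abundant in every sample. Hybridisation controls, transcripts of bacterial or phage origin added to each sample, set the sAB arrays apart. BioC read 10.15 to 10.51 in sAB against 8.28 to 8.60 in the other groups, and Cre read 14.38 to 14.55 against 14.71 to 14.91, the opposite way. An array-handling difference of sAB and its surgery cannot be told apart in comparisons that use sAB.

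All 10 genes differed among the 4 groups in the F test, with adjusted p from 0.000216 (Nr1d1) to 0.0238 (Clock), where 37.2% of all genes passed. Per2 is among the 10, and since the filter on dim probe sets kept it only through its high groups, it had to differ. The change common to most of the 10 genes lay between the 4-week hearts and the 3-day hearts. In DB3 against AB, and also in sDB3 against sAB, Per1, Nr1d1 and Nr1d2 rose and Arntl and Npas2 fell. The rises of Per1 (3.39 and 1.38 in that order) and of Nr1d1 (0.79 and 2.17) were unlike in size. In sDB3 against sAB, 7 of the 10 genes were called, 4 higher and 3 lower, where 17.8% of all genes were called, 5.49% higher and 12.3% lower (8.56% and 5.64% with each array centred on its median). In DB3 against AB, 8 of the 10 were called, 6 higher and 2 lower, where 9.16% of all genes were called, 4.04% higher and 5.12% lower. Per2 passed the filter on dim probe sets only through the groups where it was high; without it, 6 of 9 genes were called in the sham pair and 7 of 9 in the banded pair. These comparisons share no array, and in each the same 6 genes had positive and the same 4 negative differences. This is a description, since the genes were named with earlier results known and their values correlate with each other. Both comparisons also set 3 days against 4 weeks. The share of all genes with the same sign in both was not counted. The median absolute log2 difference of the 10 genes, Per2 included, was 1.10 in sDB3 against sAB, beside 0.18 over all genes, and 1.58 in DB3 against AB, beside 0.14. In bulk tissue, fewer cells of a type and less RNA per cell cannot be told apart.

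**Figure D1:**
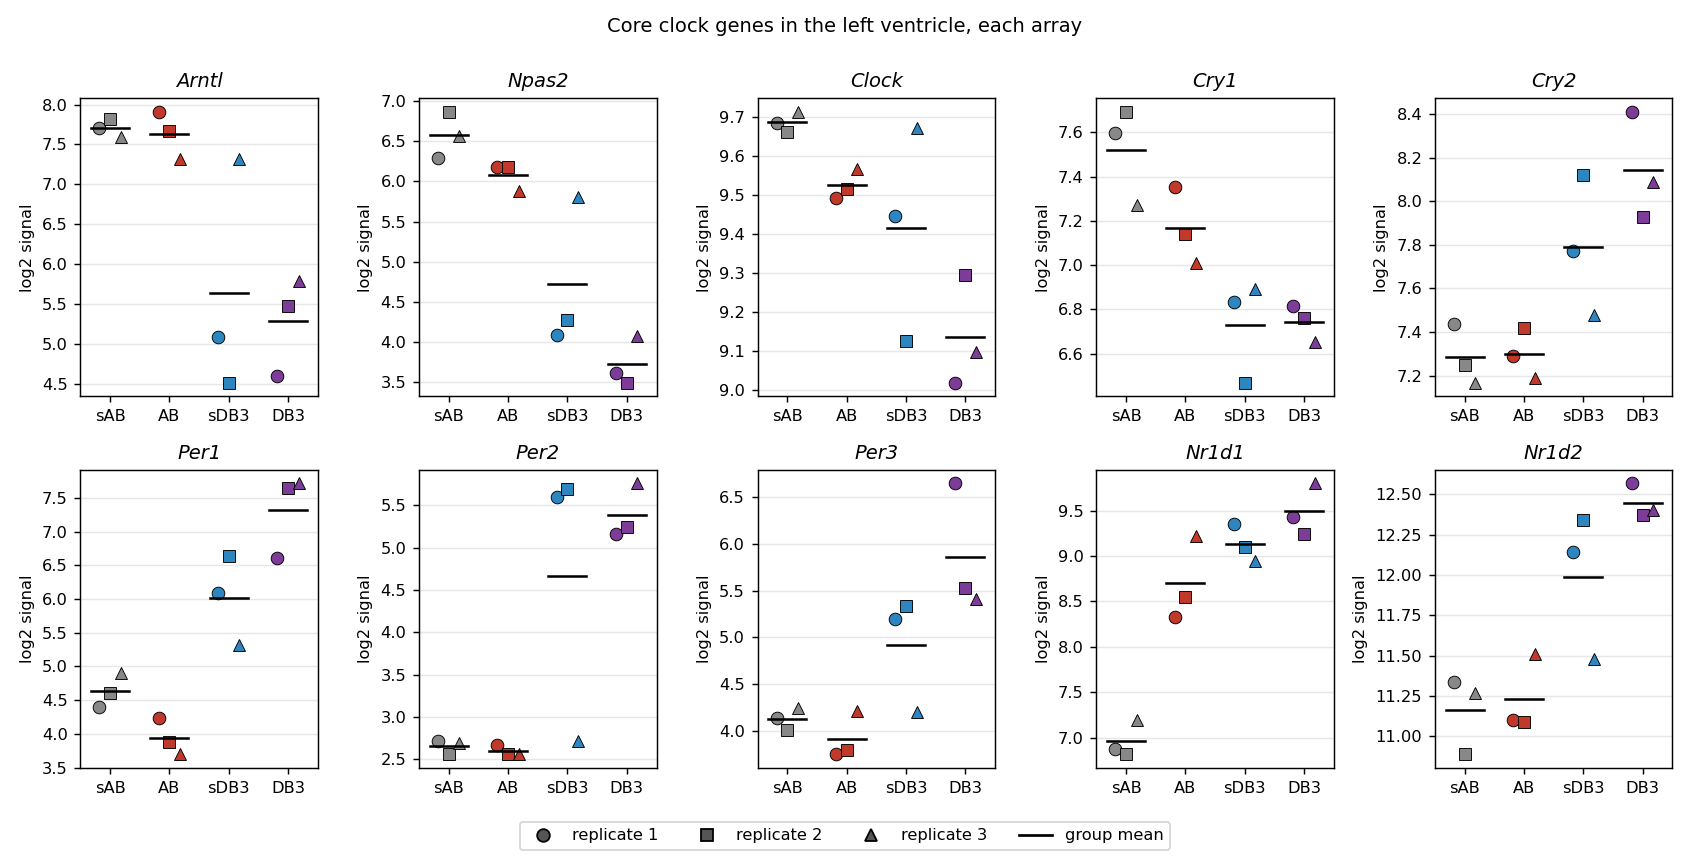
Log2 signal (y axis) of each of the 10 core clock genes on the 3 arrays of each group (x axis); points are arrays, horizontal bars group means, and the marker shape gives the replicate. Arntl sat between 7.31 and 7.91 on the 6 arrays taken at 4 weeks and between 4.51 and 5.79 on 5 of the 6 taken at 3 days, with sDB3 replicate 3 at 7.31.

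Among the activators, Arntl read 7.71, 7.82 and 7.60 in sAB and 7.91, 7.66 and 7.31 in AB. It read 5.08, 4.51 and 7.31 in sDB3 and 4.59, 5.47 and 5.79 in DB3. The sDB3 arrays were thus not alike: replicates 1 and 2 lay far below every 4-week array, and replicate 3 lay among them. Arntl fell by 2.07 ± 0.58 on the log2 scale (SE, n = 3 a group; 4.21-fold) in sDB3 against sAB, adjusted p = 0.0341. It fell by 2.35 ± 0.58 (5.09-fold) in DB3 against AB, adjusted p = 0.0315, with no overlap between the groups. Left-out arrays moved both calls: without any 1 of sAB replicates 1 to 3 or of sDB3 replicates 1 and 2 the sDB3 difference was not called (adjusted p up to 0.112), and without any 1 of AB replicates 1 to 3 or of DB3 replicates 1 and 2 the DB3 difference was not (up to 0.107).

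Npas2, which can take the place of CLOCK beside ARNTL, followed the same course. It read 6.30, 6.86 and 6.57 in sAB, 6.18, 6.17 and 5.88 in AB, 4.09, 4.28 and 5.81 in sDB3 and 3.62, 3.49 and 4.07 in DB3. All 6 of its 3-day values were below all 6 of its 4-week values, with sDB3 replicate 3 closest to them. Npas2 fell by 1.85 ± 0.37 in sDB3 against sAB, adjusted p = 0.00996, and by 2.35 ± 0.37 in DB3 against AB, adjusted p = 0.00503. In DB3, 2 of the 3 values were below 4, too low for an exact fold. Both calls held whichever array was left out; the call in sDB3 was lost when only the 2 groups compared were fitted. Clock itself differed less between the groups. It read 9.69, 9.66 and 9.71 in sAB, 9.49, 9.52 and 9.57 in AB, 9.45, 9.13 and 9.67 in sDB3 and 9.02, 9.29 and 9.10 in DB3. Its differences were -0.27 ± 0.12 in sDB3 against sAB (adjusted p = 0.138) and -0.39 ± 0.12 in DB3 against AB (adjusted p = 0.0717), and neither was called.

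Among the repressors, Per1 showed the largest absolute log2 difference of all 10435 genes in DB3 against AB. Per1, a gene also known to respond quickly to glucocorticoids and other stimuli, read 4.40, 4.61 and 4.90 in sAB and 4.24, 3.88 and 3.69 in AB. At 3 days it read 6.09, 6.64 and 5.32 in sDB3 and 6.62, 7.65 and 7.72 in DB3. Every 3-day array was above every 4-week array, and sDB3 replicate 3 was the lowest of the 3-day arrays. Per1 rose by 3.39 ± 0.35 in DB3 against AB, adjusted p = 0.000767, where 2 of the 3 AB values were below 4, too low for an exact fold. It rose by 1.38 ± 0.35 (2.61-fold) in sDB3 against sAB, adjusted p = 0.0243. This call was lost without any 1 of sAB replicates 1 and 2 or sDB3 replicates 1 and 2, with adjusted p up to 0.0825.

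Per2 read between 2.56 and 2.71 on all 6 arrays taken at 4 weeks, below the level used as the floor for testing. It read 5.60, 5.69 and 2.71 in sDB3 and 5.16, 5.25 and 5.76 in DB3. Of the 3-day arrays, 5 were thus far above that level and sDB3 replicate 3 was not, and Per2 entered the tests only through those 5 arrays. Its mean was 2.01 ± 0.61 higher in sDB3 than in sAB and 2.79 ± 0.61 higher in DB3 than in AB. These are given as a description: a gene kept only through its high groups had to differ, and values below the floor give no exact fold. With no filter on dim probe sets neither difference was called (adjusted p = 0.126 and 0.0682).

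Per3 read 4.14, 4.00 and 4.24 in sAB, 3.75, 3.79 and 4.21 in AB, 5.20, 5.33 and 4.21 in sDB3 and 6.65, 5.52 and 5.41 in DB3. DB3 lay wholly above AB, while sDB3 overlapped sAB through replicate 3. Per3 rose by 1.94 ± 0.34 in DB3 against AB, adjusted p = 0.0079, where 2 of the 3 AB values were below 4. Its difference of 0.78 ± 0.34 in sDB3 against sAB was not called, adjusted p = 0.132.

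The Cry genes, whose proteins are the strongest blockers of the CLOCK and ARNTL pair, went opposite ways. Cry1 read 7.60, 7.69 and 7.27 in sAB, 7.35, 7.14 and 7.01 in AB, 6.83, 6.47 and 6.89 in sDB3 and 6.82, 6.76 and 6.65 in DB3. Each 3-day array was below each 4-week array, sDB3 replicate 3 included. Cry1 fell by 0.79 ± 0.14 in sDB3 against sAB, adjusted p = 0.00601, and its difference of -0.42 ± 0.14 in DB3 against AB was not called, adjusted p = 0.086. Cry2 read 7.44, 7.25 and 7.17 in sAB, 7.29, 7.42 and 7.19 in AB, 7.77, 8.12 and 7.48 in sDB3 and 8.41, 7.93 and 8.09 in DB3. Here each 3-day array was above each 4-week array. Cry2 rose by 0.84 ± 0.16 in DB3 against AB, adjusted p = 0.0111, a call lost without AB replicate 3 (adjusted p = 0.0533). Its difference of 0.50 ± 0.16 in sDB3 against sAB was not called, adjusted p = 0.0553.

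The receptors that repress Arntl did not share one pattern. Nr1d2 read 11.34, 10.89 and 11.27 in sAB, 11.10, 11.09 and 11.51 in AB, 12.14, 12.34 and 11.48 in sDB3 and 12.57, 12.37 and 12.41 in DB3. Only sDB3 replicate 3, of the 3-day arrays, fell within the 4-week range. Nr1d2 rose by 1.22 ± 0.21 in DB3 against AB, adjusted p = 0.00697, and by 0.82 ± 0.21 in sDB3 against sAB, adjusted p = 0.0245, the latter lost without sAB replicate 2, sDB3 replicate 1 or sDB3 replicate 2 (up to 0.0849). Nr1d1 read 6.88, 6.82 and 7.19 in sAB, 8.33, 8.54 and 9.22 in AB, 9.35, 9.10 and 8.94 in sDB3 and 9.43, 9.25 and 9.80 in DB3. It was low in sAB and higher in all 3 other groups, with AB and sDB3 overlapping. Nr1d1 rose by 2.17 ± 0.22 (4.50-fold) in sDB3 against sAB, adjusted p = 0.000347, and by 0.79 ± 0.22 in DB3 against AB, adjusted p = 0.0498. The second call was lost without any 1 of the 11 arrays other than AB replicate 3, with adjusted p up to 0.16.

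**Figure D2:**
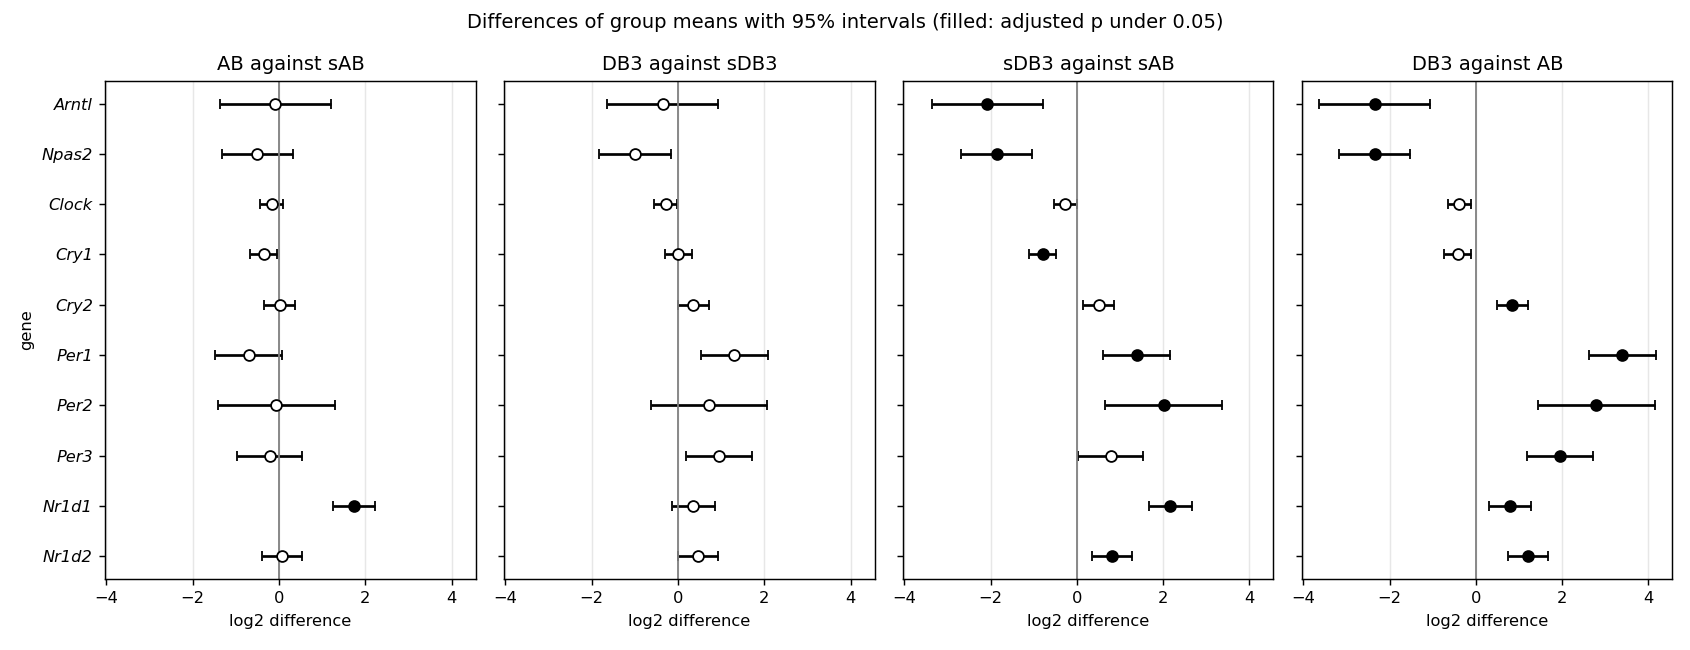
Log2 difference (x axis) of each core clock gene (y axis) in the comparisons of the 4 groups; points are fitted differences, bars their 95% confidence intervals and filled points those with adjusted p under 0.05. In DB3 against AB 8 of the 10 genes were called and in DB3 against sDB3 0.

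The array sDB3 replicate 3 lay away from the other arrays of its group in most of these genes. Over all genes its departures were within the range of the other arrays, but it also lay away in some genes outside the 10, as given below. Its value was nearer to the mean of the 6 arrays taken at 4 weeks than to that of the other 5 taken at 3 days for 8 of the 10 genes, all but Cry1 and Nr1d1, and within the 4-week range for 6. Of all genes tested, 42.4% were nearer to the 4-week mean on this array. The departure of an array was taken as its value minus the mean of the other 2 arrays of its group. For sDB3 replicate 3 the median absolute departure was 0.91 over the 10 genes and 0.12 over all genes. On the other 11 arrays it was 0.12 to 0.58 over the 10 genes and 0.09 to 0.13 over all genes. The departure passed 1 on the log2 scale for 5 of the 10 genes on this array, and for 0.968% of all genes, within the 0.307% to 1.28% of the other arrays. Of the 696 genes (6.67% of those tested) whose 4-week and other 3-day arrays did not overlap, 37.6% were nearer to the 4-week mean on this array. Of the 9 clock genes among them, 8 were. Among genes whose mean of the other 3-day arrays differed from the 4-week mean by over 1, as for 7 of the clock genes, the array was nearer to the 4-week mean for 6 of the 7 and for 52 of 84 other genes (61.9%). The 84 include Dbp, Tef, Hlf, Nfil3, Ciart and Usp2, which are output and auxiliary clock genes named below. For each of these the array was nearer to the 4-week mean, so the 84 are not free of clock genes. Whether the 10 core clock genes differ from the 84 in this was not tested.

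**Figure D3:**
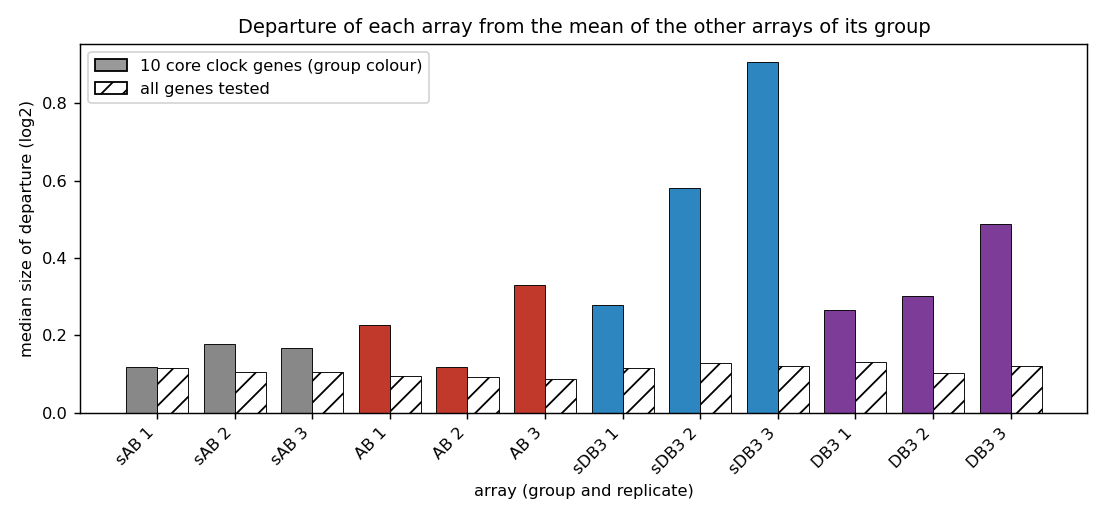
Bars give the median absolute departure of each array from the mean of the other arrays of its group (log2 units, y axis) for the 10 core clock genes and for all 10435 genes, by array (x axis). The clock genes on sDB3 replicate 3 reached 0.91, while all genes on that array sat at 0.12.

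Values without sDB3 replicate 3 are a description, since the array was singled out by its values in these genes. Without it, Arntl differed by -2.91, Npas2 by -2.39 and Per2 by 2.99 in sDB3 against sAB, and all 10 genes were called, where 18.6% of all genes were. In DB3 against AB, which shares only the spread with that array, 8 were called with it left out, where 9.24% of all genes were, Clock entering (adjusted p = 0.035) and Nr1d1 dropping out (adjusted p = 0.0556). Both counts include Per2, which the filter on dim probe sets kept only through its high groups.

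**Figure D4:**
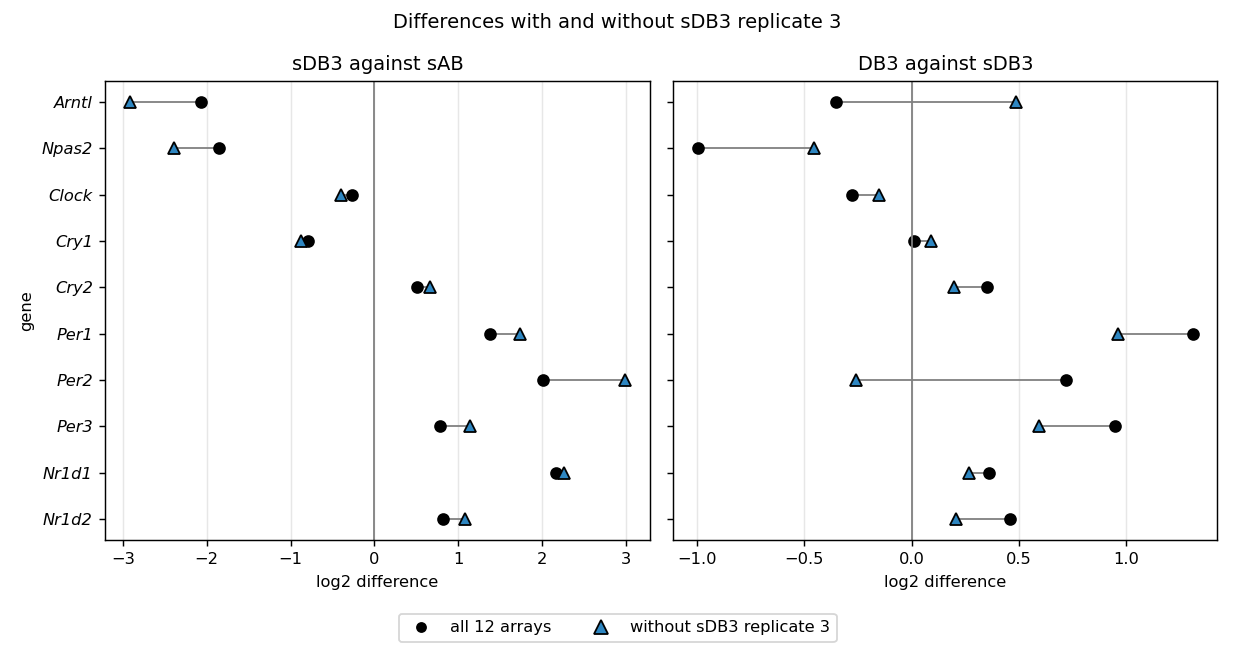
Log2 difference (x axis) of each core clock gene (y axis) for sDB3 against sAB (left panel) and DB3 against sDB3 (right panel), with all 12 arrays (circles) and without sDB3 replicate 3 (triangles). In sDB3 against sAB, leaving the array out moved Arntl from -2.07 to -2.91 and Per2 from 2.01 to 2.99.

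After 4 weeks of banding, Nr1d1 was the 1 clock gene of the 10 that was called. In AB against sAB, Nr1d1 rose by 1.74 ± 0.22 (3.33-fold), adjusted p = 0.000659, with the 3 AB arrays all above the 3 sAB arrays, and the call held under every alternative run. Across all genes 19.7% were called, 12% higher and 7.69% lower (9.95% and 11.2% with centred arrays), so 1 of 10 is no more than the background. The median absolute difference of the 10 genes was 0.19, beside 0.17 over all genes. Arntl differed by -0.08 ± 0.58 (95% interval -1.36 to 1.20), Npas2 by -0.50 ± 0.37 (adjusted p = 0.38) and Per1 by -0.70 ± 0.35 (adjusted p = 0.19). These SEs use a spread shared by the 4 groups, sDB3 included. For Arntl the SD was 1.48 in sDB3, against 0.11 in sAB and 0.30 in AB, so its interval is not the spread of sAB and AB alone. The groups did not overlap for 4 of the 10 genes, where 42.1% of all genes did not. The sAB arrays are those set apart by BioC and Cre, and the part of this in the Nr1d1 difference was not tested. Nr1d1 lies over Thra on the opposite strand in the RefSeq table. Thra, a thyroid hormone receptor, read 8.12 to 8.60 on all arrays and differed by 0.02 in AB against sAB, adjusted p = 0.856.

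Banding followed by debanding, read against the sham of the same day, called 0 of the 10 genes. In DB3 against sDB3, 6.36% of all genes were called, 5.37% higher and 0.997% lower (1.31% and 3.15% with centred arrays). By limma's unadjusted p, 4 of the 10 genes were under 0.05, and by the other settings run at most 1, Per1, was called. Per1 was 1.31 ± 0.35 higher in DB3, adjusted p = 0.0521, and the groups overlapped, with sDB3 replicate 2 at 6.64 and DB3 replicate 1 at 6.62. Npas2 differed by -0.995 ± 0.37 (adjusted p = 0.13), Per3 by 0.95 ± 0.34 (adjusted p = 0.121) and Arntl by -0.35 ± 0.58 (95% interval -1.64 to 0.93). Several of these values rest on 1 array. Without sDB3 replicate 3 the Arntl difference was 0.49, that of Npas2 -0.45 and that of Per3 0.59. That of Per2 was -0.26, against 0.72 with the array.

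The effect of the first comparison was set against that of the second by testing DB3 minus sDB3 less AB minus sAB. Per1 and Nr1d1 were called, 2 of the 10 genes, where 6.04% of all genes were. Per1 gave 2.01 ± 0.50, adjusted p = 0.0421, from -0.70 in AB against sAB and 1.31 in DB3 against sDB3. Nr1d1 gave -1.38 ± 0.31, adjusted p = 0.0329, from 1.74 in AB against sAB and 0.36 in DB3 against sDB3. Without sDB3 replicate 3 the Per1 value was 1.66 (adjusted p = 0.0574), and the call was lost with quantile normalization (1.92, adjusted p = 0.0541) and with centred arrays (1.94, adjusted p = 0.05165). The Per1 call was also lost without any 1 of sAB replicates 1 to 3, AB replicates 1 to 3, sDB3 replicate 1 or DB3 replicates 2 and 3 (adjusted p up to 0.101), and that of Nr1d1 without any 1 of sAB replicates 1 and 2, AB replicates 2 and 3, sDB3 replicates 1 and 2 or DB3 replicates 1 and 2 (up to 0.073).

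In AB against sDB3, which differ in banding, in the second operation and in age, 6 of the 10 genes were called, 3 higher and 3 lower in AB, or 5 of 9 without Per2. Of all genes 22% were called, 17.3% higher and 4.69% lower (7.75% and 11.7% with centred arrays, where 2 clock genes were called higher and 5 lower). Per1, with 2 of 3 AB values too low for an exact fold, was lower in AB by 2.08 ± 0.35, adjusted p = 0.00347. This call held under every alternative. The other 5 were Arntl (1.99 ± 0.58), Npas2 (1.35 ± 0.37) and Cry1 (0.44 ± 0.14) higher in AB, and Per2 (-2.07 ± 0.61) and Nr1d2 (-0.76 ± 0.21) lower. Each of these 5 calls was lost without any 1 of AB replicates 1 and 2 or sDB3 replicates 1 and 2, and the adjusted p reached 0.154.

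The 10 genes had 23 probe sets, of which 14 passed the filter. Where a gene had a further bright probe set, it gave the same sign between 4 weeks and 3 days. Both other bright Clock probe sets were lower in sDB3 than in sAB, by -0.34 and -0.47, and in DB3 than in AB, by -0.45 and -0.44, so that the Clock probe set used showed the smallest of the 3 differences. The other Nr1d2 probe set gave 0.94 and 1.57. A dimmer Per3 probe set gave 0.69 and 0.99 in these comparisons, but -0.11 in DB3 against sDB3, where the probe set used gave 0.95. Nr1d1, Cry1, Cry2 and Per1 each had 1 probe set only.

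Correlations over the 12 arrays are given as a description, since the arrays share groups. Arntl and Npas2 correlated at r = 0.94, Arntl and Nr1d2 at -0.95 and Npas2 and Nr1d2 at -0.97. Nr1d1 correlated more weakly with most of the others, at r = 0.58 with Per1 and -0.69 with Arntl, but at -0.89 with Cry1. Among the other genes tested, the 5 most like Arntl were Adam19 (r = 0.98), Ypel2 (0.95), Leo1 (0.94), Ptpn4 (0.94) and Slc39a10 (0.94). The 5 with the most negative correlation with Arntl were Usp2 (-0.99), Ciart (-0.97), Hlf (-0.95), Tef (-0.95) and Dbp (-0.95). All of them are on the list of output and auxiliary clock genes. The 5 most like Nr1d1 were Supt6 (0.96), Trak1 (0.96), Plbd2 (0.95), Epn1 (0.95) and Dnajb12 (0.95), none of them on that list. The 5 with the most negative correlation with Nr1d1 were Chordc1 (-0.97), Nup62 (-0.95), St7 (-0.95), Sirt3 (-0.94) and Cnot7 (-0.94), also not on it.

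**Figure D5:**
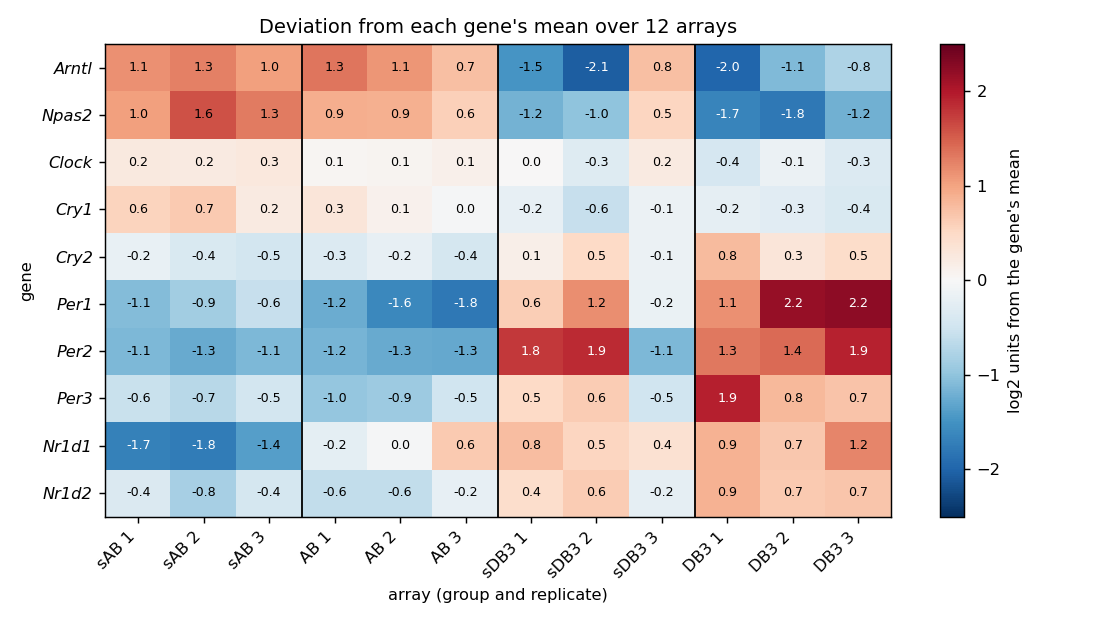
Deviation of each core clock gene (rows) on each array (columns) from the gene's mean over the 12 arrays, in log2 units, as colour and printed value. Arntl and Npas2 are above their means on all 4-week arrays and on sDB3 replicate 3, and below them on the other 3-day arrays.

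The output and auxiliary clock genes, which the core loop drives or which modify its proteins, were read as a list of 19 genes, 14 of them tested. In DB3 against AB 5 were called higher and 2 lower, where 4.04% and 5.12% of all genes were. Dbp, a D-box factor driven by ARNTL, rose by 2.87 ± 0.53 (adjusted p = 0.00967). Hlf, a second D-box factor, rose by 1.52 ± 0.30 (adjusted p = 0.0112), and Usp2, a deubiquitinase, by 1.36 ± 0.25 (adjusted p = 0.00942). Ciart, a repressor of the ARNTL complex and one of the 5, passed the filter, as Per2 did, only through 3-day arrays. It read 2.59 to 3.26 on the 6 arrays taken at 4 weeks, 6.35, 6.65 and 2.85 in sDB3 and 6.01 to 6.25 in DB3, so sDB3 replicate 3 lay with the 4-week arrays here too. In sDB3 against sAB, where 5.49% of all genes were called higher and 12.3% lower, 2 rose, Dbp by 2.35 ± 0.53 (adjusted p = 0.0157) and Usp2 by 1.06 ± 0.25 (adjusted p = 0.0188), and 2 fell, Nfil3, a D-box repressor, by 0.97 ± 0.23 (adjusted p = 0.0182) and Csnk1d by 0.53 ± 0.15 (adjusted p = 0.0343). The list medians were 0.30 in DB3 against AB and 0.21 in sDB3 against sAB, beside -0.02 and -0.09 over all genes. Of these calls, those of Dbp, Usp2 and Nfil3 in DB3 against AB held whichever array was left out. That of Ciart was lost with no filter (adjusted p = 0.0804), with no moderation of the spread, and without any 1 AB or DB3 array (up to 0.0845). That of Hlf was lost without AB replicate 3 (adjusted p = 0.053). Tef, also called higher, was lost without AB replicates 2 or 3 or DB3 replicate 1 (up to 0.0688). Timeless, called lower, was lost without AB replicates 2 or 3 or DB3 replicates 2 or 3 (up to 0.0764). In sDB3 against sAB each of the 4 calls was lost without sAB replicate 2 (adjusted p over all left-out arrays up to 0.0911). Those of Dbp, Usp2 and Csnk1d were also lost without sDB3 replicate 1, those of Dbp, Usp2 and Nfil3 without sDB3 replicate 2, and that of Csnk1d without sAB replicate 3 or sDB3 replicate 3. Csnk1d turned to 0.11 as the mean of its probe sets. In AB against sAB 2 rose, Timeless and Btrc, where 12% of all genes were called higher. The Timeless call held, and that of Btrc was lost without any 1 AB array (adjusted p up to 0.0855). In DB3 against sDB3, where 6.36% of all genes were called, 0 of the list were, with 0 under every other setting run.

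Per1 and Per2 also belong to the genes that glucocorticoids and immediate early signals are known to induce, so lists of both were read beside them. Of 10 glucocorticoid-responsive genes, 3 rose in each of the comparisons of 3 days with 4 weeks, Mt1, Mt2 and Klf9, and 0 fell, where 4.04% (DB3 against AB) and 5.49% (sDB3 against sAB) of all genes were called higher. Mt1 and Mt2 were also called higher in AB against sAB (0.46 and 0.90), and Mt2 in DB3 against sDB3 (1.09). In AB against sAB, the call of Mt1 was lost without any 1 AB array, among others (adjusted p up to 0.138). That of Mt2 was lost there without sAB replicates 1 or 2 or AB replicates 2 or 3 (up to 0.0759). In DB3 against sDB3, that of Mt2 was lost without sDB3 replicates 2 or 3 or DB3 replicates 1 or 3 (up to 0.0754). Klf9 rose by 0.76 ± 0.14 in DB3 against AB (adjusted p = 0.0105), and Mt2, a metallothionein, by 1.25 ± 0.23 (adjusted p = 0.00894). The Mt1 call in DB3 against AB was lost without AB replicate 2, AB replicate 3 or DB3 replicate 1 (adjusted p up to 0.0889), and the Klf9 call in sDB3 against sAB without any 1 of the 10 arrays other than sDB3 replicate 3 and DB3 replicate 1 (up to 0.154). The list median was 0.54 in DB3 against AB and 0.51 in sDB3 against sAB. Zbtb16 read 10.61, 10.68 and 7.14 in sDB3, where replicate 3 again lay with the 4-week arrays at 7.10 to 7.61; the gene was chosen after its values were seen. Of 15 immediate early genes tested, 4 (Junb, Egr2, Egr3 and Myc) were called higher in AB against sAB, where 12% of all genes were. Egr2 and Myc held there whichever array was left out. Junb was lost without sAB replicate 1 or any 1 AB array (adjusted p up to 0.0957). Egr3 was lost without sAB replicates 1 or 3 or AB replicates 2 or 3 (up to 0.107). Myc was also called higher in DB3 against sDB3, a call lost without any 1 sDB3 or DB3 array (up to 0.0906). In DB3 against AB, where 5.12% of all genes were called lower, 0 rose and 3 fell (Egr2 and Egr3, which held whichever array was left out, and Myc, which did not without AB replicates 2 or 3 or DB3 replicate 2), and 0 rose and 1 fell in sDB3 against sAB (Fosl2, lost without sAB replicates 2 or 3, AB replicate 1 or sDB3 replicates 1 or 2). The part of these signals in the clock gene differences was not tested.

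Atrial genes varied widely among arrays whose atria had been removed. Myl7, the atrial myosin light chain, read 12.41, 12.97 and 10.11 in sDB3 and 9.45, 12.72 and 4.67 in DB3. DB3 replicate 3, the lowest for Myl7, read 5.76 for Per2 and 7.72 for Per1, the highest of its group for both. The other way round, sDB3 replicate 3, the lowest of its group for Myl7, was also the lowest of it for Per2 (2.71) and Per1 (5.32). The signals of the 6 atrial markers, of which Nppa was the brightest on every array, were also summed unlogged. The log2 of this sum was 12.85 to 12.99 in sAB, 15.16 to 15.51 in AB, 13.43 to 14.60 in sDB3 and 13.73 to 14.91 in DB3. In AB against sAB, Nppa alone was called, higher by 2.39 ± 0.16. Myl7 (2.47 ± 1.67), Myl4 (1.97 ± 1.47), Sln (3.15 ± 1.68) and Dkk3 (0.95 ± 0.80) were not called there. The sum thus mainly follows Nppa and is no measure of atrial tissue by itself. Bmp10 stayed at the lowest value of the table on every array. Summed endothelial markers read 12.42 to 12.46, 12.56 to 12.63, 12.12 to 12.41 and 12.18 to 12.46 in the same order, and fibroblast markers 15.32 to 15.61, 15.40 to 15.58, 15.30 to 15.37 and 15.52 to 15.69. Macrophage markers read 12.55 to 13.61, 12.63 to 12.78, 12.44 to 12.73 and 12.67 to 12.75, and Cx3cr1, 1 of the 8, was called higher in AB against sAB (0.91) and lower in DB3 against AB (-1.10). It was the only one called in AB against sAB and went against its list there. The median of the 8 markers was -0.31 in AB against sAB and -0.09 in DB3 against AB, beside 0.01 and -0.02 over all genes. Smooth muscle markers read 14.24 to 14.61, blood markers 9.71 to 10.40 and adipose markers, nearly all Fabp4, 14.48 to 14.66 over all groups. Of the 7 skeletal muscle markers only Ckm, which heart muscle also expresses, and Mylpf were tested, and the sum (14.34 to 14.62) was nearly all Ckm, while Myh4 read at most 2.40. The difference between the 3' and 5' probe sets of Actb, a measure of RNA integrity, was 1.20 to 1.26 in sAB, 1.02 to 1.13 in AB, 1.20 to 1.25 in sDB3 and 1.11 to 1.32 in DB3. The part of these in the clock gene differences was not tested.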

How the data were processed

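Total RNA of the left ventricle of 12 mice was hybridised to 1 Affymetrix array each. The authors deposited log2 signals per probe set, made with GCRMA per the submitters' processing notes; the sources used here give neither version nor settings. The table has 45101 probe sets: 34945 with a single gene symbol, which were used, 932 with several, 9160 without one and 64 controls. Probe sets that exceeded log2 4 on 3 or more of the arrays were kept, and the brightest on average was taken for each gene (10435 genes). Symbols were updated through RefSeq, where 34741 were found.

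Group means were compared with limma 3.58.1 in R 4.3.3, in 1 model of the 4 groups with 8 residual and 2.68 prior degrees of freedom; p-values are two-sided and Benjamini-Hochberg adjusted. The fit was tested on simulated data. Replicates are separate mice, numbered in accession order. The members and lists were chosen with earlier results of these data known. Named genes are the 10 members and the 5 genes with the highest and 5 with the lowest correlation with Arntl and with Nr1d1. In other lists they are mainly the called genes with the largest difference, up to 4. Alternatives changed the filter, the probe set rule, the scaling, the samples fitted, the moderation and the array weights, and left out each array.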

Additional observations from a re-analysis of the deposited data

Results flagged for a closer look

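For 2 clock genes the effect of banding at 4 weeks and that of banding followed by debanding at 3 days differed in a test of the difference itself. For Per1 the difference of the effects was 2.01 on the log2 scale (limma adjusted p = 0.0421). For Nr1d1 it was -1.38 (adjusted p = 0.0329). The Per1 call was lost under 14 of 21 alternatives, quantile normalization (adjusted p = 0.0541) and centred arrays (adjusted p = 0.05165) among them, and the Nr1d1 call under 10 of 21. Both sets of effects use the 12 arrays once each, 3 a group.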

How the results depend on the processing

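Of 60 differences (10 genes in 6 contrasts), 24 were called, all 24 kept their sign under up to 22 alternatives each, and 8 stayed called under each. These were Per1 in DB3 against AB and in AB against sDB3, Nr1d1 in AB against sAB and in sDB3 against sAB, Cry1 in sDB3 against sAB, and Per3, Npas2 and Nr1d2 in DB3 against AB. Of the 36 not called, 26 were never called and 11 changed sign.

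The count of clock genes called in sDB3 against sAB was 3 with no filter on dim probe sets, 2 with only the 2 groups compared, 3 with no moderation of the spread, and 3 to 10 with 1 array left out. In DB3 against AB it was 5 with no filter, 5 with no moderation, and 5 to 8 with 1 array left out. In AB against sDB3 it was 1 under each of no filter, only the 2 groups and no moderation, and 1 to 8 with 1 array left out. In AB against sAB it was 2 with only the 2 groups, and 1 to 2 with 1 array left out. In DB3 against sDB3 it was 1 with log2 above 6, with trend and robust moderation and with array weights, and 0 to 1 with 1 array left out. For the difference of effects it was 0 with no filter, 1 with quantile normalization, 1 with centred arrays, 0 with no moderation, and 0 to 1 with 1 array left out.

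Signs turned only for differences that were not called, apart from Csnk1d in sDB3 against sAB (0.11 as the mean of its probe sets). In DB3 against sDB3, Cry1 turned to -0.11 with quantile normalization, -0.11 with centred arrays and -0.025 with array weights. In AB against sAB, Cry2 turned to -0.037 with quantile normalization and -0.035 with centred arrays, and Nr1d2 to -0.12 as the mean of its probe sets. In AB against sDB3, Clock turned to -0.026 with centred arrays. With 1 array left out, the ranges were -0.26 to 1.23 for Per2, -0.119 to 0.0925 for Cry1 and -0.915 to 0.486 for Arntl in DB3 against sDB3. They were -0.0456 to 0.0896 for Cry2, -0.22 to 0.0776 for Arntl and -0.0733 to 0.152 for Nr1d2 in AB against sAB, and -0.035 to 0.239 for Clock in AB against sDB3. For the difference of effects they were -0.20 to 1.29 for Per2, -0.83 to 0.57 for Arntl, -0.262 to 0.0122 for Clock and -0.814 to 0.0452 for Npas2.

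Over all genes the counts called moved from 2058 to between 1139 and 3391 in AB against sAB, from 664 to between 0 and 841 in DB3 against sDB3, and from 1861 to between 571 and 2987 in sDB3 against sAB. They moved from 956 to between 365 and 1411 in DB3 against AB, from 2298 to between 1124 and 3326 in AB against sDB3, and from 630 to between 152 and 976 for the difference of effects. The causes were not tested. Centring arrays moved the median of all genes by 0.12 in DB3 against sDB3 and by 0.14 in AB against sDB3. No paired analysis was possible because the replicate numbers only follow accession order and pair no samples. Signals near the floor, as for Per2, limit how large a fold can be read.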
